A study of Homo sapiens with 8 samples.

Results

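The genes of glycolysis and of the hypoxia response were followed across HepaRG cultures exposed to chemicals that stress liver cells. The group held 34 genes, chosen by symbol from a fixed list, of the 62703 genes in the count matrix. It comprised the enzymes that turn glucose into lactate, the sugar and lactate transporters, the kinases that steer the pathway, the hypoxia-inducible factors HIF1A and EPAS1, and known targets of those factors. HepaRG is a human hepatic progenitor line that differentiates into hepatocyte-like and biliary-like cells. Its cells were exposed for 24 h in 0.1% DMSO and profiled by Parse Evercode single-cell RNA sequencing, in which split-pool barcodes mark the cell and unique molecular identifiers (UMIs) mark each captured RNA. The conditions were rotenone (0.2 and 0.4 µM), cycloheximide (0.2, 2 and 20 µM), etoposide (0.25, 2.5 and 25 µM), tunicamycin (0.001, 0.01 and 0.1 µM), tBHQ (3, 30 and 300 µM), brefeldin A (0.001, 0.01 and 0.1 µM) and the vehicle, DMSO. Rotenone inhibits mitochondrial complex I, cycloheximide inhibits protein synthesis at the ribosome, etoposide traps topoisomerase II on DNA and tunicamycin blocks N-linked glycosylation. All cells were of this line, and the 8 deposited samples are sublibraries, which are aliquots of 1 pool of barcoded cells.

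Cells cleave glucose to pyruvate in the cytosol and either oxidise it in mitochondria or reduce it to lactate. Under low oxygen, prolyl hydroxylases no longer mark HIF1A and EPAS1 proteins for degradation, and their dimers with ARNT bind a short DNA core, ACGTG, near the genes of glucose uptake, glycolysis and angiogenesis. HIF1A and EPAS1 are regulated mainly at the protein level, which RNA counts do not measure. In liver, glucose enters through SLC2A2 and the liver enzymes PFKL and PKLR are typical of hepatocytes.

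The matrix held 12976 cells under 47 culture names and 1002686268 UMIs. There were 8406 cells that held 500 or more genes and no more than 20% mitochondrial UMIs, and they were summed for each of 38 cultures with 30 or more such cells, of which 31 belonged to a condition named in the labels. These cultures held 37 to 1434 cells and 1741603 to 97081214 UMIs. Culture names carry a run number that no source defines. There were 4 DMSO cultures, of runs 3, 4, 5 and 6. Rotenone had 1 culture at 0.2 µM, of run 5, and 2 at 0.4 µM, of runs 5 and 6, and 20 µM cycloheximide had 2, of runs 3 and 4. The study describes 1 treated culture per condition, so that the p-values measure the spread between these named cultures, which may be technical. The 2 rotenone cultures of run 5 had medians of 184833 UMIs per cell (0.2 µM) and 184485 (0.4 µM), and the 0.4 µM culture of run 6 had 45112.5, against 17080 to 79381 in DMSO. The DMSO culture of run 4 stood apart, with a median of 2.46% mitochondrial UMIs against 12.3% to 14.8% in the other DMSO cultures. The 0.2 µM cycloheximide culture of run 4 was like it, at 1.23% and a median of 15942 UMIs per cell. The other treated cultures of run 4 with a condition in the labels were at 7.87% to 17.8%. Without the DMSO culture of run 4, of the group's calls at 0.4 µM rotenone and 20 µM cycloheximide, SLC16A3 (rotenone) and ENO1 (cycloheximide) were lost. Of the cells' well barcodes, 822 occurred in more than 1 sublibrary. In the DMSO cultures 10 hepatocyte markers summed to 10917 to 26861 CPM (UMIs per 1000000 UMIs of a culture), 9 stellate cell or fibroblast markers to 122 to 242 CPM (COL1A2 at 0 in all of them) and 6 macrophage markers to 14.2 to 36.0 CPM (C1QA at 0 in all of them). Sums over a culture cannot tell fewer cells of a type from less RNA per cell.

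The promoter windows were examined because the HIF core ACGTG is the sequence by which many of these genes are known to respond to hypoxia. RefSeq windows on GRCh38.p14, spanning 250 bases before to 50 bases after a start, were matched to 32 of the 34 genes. VEGFA and NDRG1 had no entry. The core was searched on both strands, so that it reads ACGTG or CACGT, and the palindrome CACGTG counts on both. It occurred in a window of 19 of the 32 genes (59.4%), against 24.9% of 27305 genes. Since genes have 1 to several windows, the share was also taken over windows, and it was 37.7% of 61 windows of the group and 21.4% of 35116 windows in all. With the wider core ACGTG or GCGTG, 29 of the 32 genes (90.6%) had a match, against 52.4% of all genes. Of the genes that were higher with 0.4 µM rotenone, 5 of 7 matched genes had the core, and of those that were lower, 5 of 8. A match does not show that a factor binds there. The 5 higher genes with a match are given here, each as the stretch around its first matches, with the core in capitals.

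PFKFB3: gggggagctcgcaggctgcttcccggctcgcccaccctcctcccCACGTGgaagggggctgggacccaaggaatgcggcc
ALDOC: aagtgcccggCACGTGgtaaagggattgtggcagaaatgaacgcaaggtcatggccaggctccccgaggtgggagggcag
PGK1: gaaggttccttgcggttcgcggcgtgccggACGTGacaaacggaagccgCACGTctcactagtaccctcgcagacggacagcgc
BNIP3: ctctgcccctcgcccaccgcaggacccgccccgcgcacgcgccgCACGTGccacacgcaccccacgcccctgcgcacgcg
PDK1: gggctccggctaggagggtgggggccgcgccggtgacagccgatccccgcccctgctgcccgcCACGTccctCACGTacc

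The PFKFB3 stretch lies at chr10:6202780-6202859 on the plus strand, from base -152 to base -73 relative to the start, and holds the palindrome. The ALDOC stretch, chr17:28577066-28577145 on the minus strand, runs from base -250 to base -171 and also holds the palindrome. The PGK1 stretch, chrX:78104016-78104099 on the plus strand, runs from base -232 to base -149 and holds one core on each strand. The BNIP3 stretch, chr10:131982022-131982101 on the minus strand, runs from base -178 to base -99 and holds the palindrome. The PDK1 stretch, chr2:172556010-172556089 on the plus strand, ends at base -1 and holds 2 copies of the core in the same orientation. The KDM3A and ENO1 windows had no match, which says only that these letters are not in those windows.

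Rotenone at 0.4 µM changed 17 of the 33 genes that passed the filter on low counts. Among the hypoxia targets KDM3A, NDRG1, VEGFA and BNIP3 were higher and EGLN3 was lower, the pyruvate dehydrogenase kinase PDK1 and the glycolytic regulator PFKFB3 were higher, and among the enzymes ALDOC, ENO1 and PGK1 were higher while HK2, PFKM, PFKP and PKLR were lower. The transporters SLC2A2 and SLC16A3 and the factor EPAS1 were lower. Thus 9 genes (27.3%) were higher, against 19.1% of the 19831 genes tested, and 8 (24.2%) were lower, against 42.2%, by edgeR's quasi-likelihood test at a Benjamini-Hochberg adjusted p of 0.05 over all genes. The median log2 fold change was 0.36 over the 33 genes and -0.56 over all genes. Among tested genes of at least 50 CPM, the median was 0.72 under 10 kb of gene length, 0.34 from 10 to 100 kb and -0.65 over 100 kb. For the group's genes at that level the medians were 0.66, 0.61 and 0.57, from 3, 11 and 3 genes. Lengths are GENCODE gene spans. The 3 genes over 100 kb were PFKFB3 (log2 fold change 0.91), PGK1 (0.57) and EGLN3 (-1.98). The spans of PFKFB3 and PGK1 begin at chr10:6144934 and chrX:77910739, far upstream of the promoter windows above. Transcripts from those windows are shorter than the spans, so that nothing is read from the third median. With TMM factors in place of total UMIs the median over all genes moved to -0.10, 16 of the 33 genes (48.5%) were higher, against 28.1% of all genes, and 5 (15.2%) were lower, against 30.6%. All 9 higher genes remained higher, and ADM, ALDOA, GAPDH, HIF1A, PGAM1, PKM and TPI1 were added. EPAS1, PKLR and SLC16A3 were no longer called with TMM. Without the DMSO culture of run 5, 14 genes were higher and 6 lower. The share of all genes called in that fit is not given, so that the change is not read as one of the group alone. Genes that lost their call without 1 rotenone culture are named below. Where 1 of the 2 treated cultures is left out, the remaining one is assumed to vary like the DMSO cultures, since it has no spread of its own. In simulated counts for this comparison, with 50 of 19831 genes changed at each size, the test recovered 0% of 1.5-fold, 24% of 2-fold and 90% of 4-fold changes. Far fewer genes were changed there than the 3794 called higher and 8373 called lower in the data. With fewer changed genes the adjusted p is stricter, so that these rates do not carry over to the calls above.

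KDM3A, a histone lysine demethylase induced by HIF1A (chromosome 2, 86440647 to 86492716 on the plus strand), had the largest fold change of the 33 genes. It stood at 438 and 564 CPM with 0.4 µM rotenone (runs 5 and 6), against 50.9, 72.6, 44.5 and 57.1 CPM with DMSO (runs 3 to 6). Both rotenone cultures lay far above every DMSO culture. The log2 fold change was 3.16 ± 0.23 (SE; adjusted p = 1.06e-06), and within runs 5 and 6 the log2 ratios were 3.30 and 3.31. Counted over cells thinned to 5000 UMIs each, KDM3A had a UMI in 81.8% and 89.1% of rotenone cells, against 16.1% to 29.1% of DMSO cells. Unthinned, the shares were 99.3% and 100%, against 66.1% to 80.1%. No cell type lacking the gene was set apart, so that UMIs from free RNA were not measured in any of these shares.

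NDRG1, a cytoplasmic protein induced by low oxygen and by other stresses, was at 198 and 221 CPM with 0.4 µM rotenone, against 35.4, 32.2, 61.5 and 36.1 CPM with DMSO. The groups did not overlap, and the DMSO culture of run 5 was the highest of its group. Its log2 fold change was 2.32 ± 0.25 (adjusted p = 1.05e-05), with within-run log2 ratios of 1.69 in run 5 and 2.61 in run 6. Its share of thinned cells with a UMI was 55.0% and 51.8%, against 10.2% to 24.8% in DMSO, and unthinned 95.9% and 95.5%, against 40.2% to 84.9%.

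PDK1 (chromosome 2, 172555373 to 172608669 on the plus strand), whose product phosphorylates and inhibits pyruvate dehydrogenase and so keeps pyruvate out of the mitochondrial cycle, was at 76.0 and 84.7 CPM with 0.4 µM rotenone, against 17.3, 19.3, 19.3 and 19.3 CPM with DMSO. The DMSO cultures lay close together, and both rotenone cultures were far above them. edgeR gave a log2 fold change of 2.10 ± 0.19 (adjusted p = 3.43e-06), and it was 1.98 within run 5 and 2.13 within run 6. PFKFB3, which makes the allosteric activator of phosphofructokinase, was at 93.9 and 145 CPM with 0.4 µM rotenone, against 52.7 to 82.1 CPM with DMSO (log2 fold change 0.91 ± 0.24, adjusted p = 0.00558). Its within-run log2 ratios were 0.19 and 1.46, and without the rotenone culture of run 6 it was no longer called (0.56, adjusted p = 0.0953). PFKFB4, its paralogue, was at 10.4 and 8.54 CPM, within the DMSO range of 5.603 to 12.03 CPM, and was not called.

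VEGFA, the angiogenic growth factor (chromosome 6, 43770184 to 43786487 on the plus strand), was at 92.3 and 151 CPM with 0.4 µM rotenone, against 50.5, 39.5, 85.3 and 50.01 CPM with DMSO. The groups did not overlap, but the rotenone culture of run 5 was close to the DMSO culture of the same run. The log2 fold change was 1.09 ± 0.29 (adjusted p = 0.00608), with within-run log2 ratios of 0.11 in run 5 and 1.59 in run 6, and without the rotenone culture of run 6 it was 0.69 (adjusted p = 0.103). BNIP3, a receptor for the removal of mitochondria (chromosome 10, 131967684 to 131981967 on the minus strand), was at 135 and 71.1 CPM with 0.4 µM rotenone, against 46.6, 38.6, 61.2 and 47.5 CPM with DMSO. Here the rotenone culture of run 5 was the high one, and both were above every DMSO culture. This was a log2 fold change of 1.09 ± 0.26 (adjusted p = 0.00327), and 0.54 (adjusted p = 0.111) without the rotenone culture of run 5. BNIP3 pseudogenes took 0.392% to 5.03% of the combined UMIs.

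EGLN3, a prolyl hydroxylase that acts on the HIF factors and is itself a HIF target (chromosome 14, 33924227 to 34462774 on the minus strand), went the other way. It was at 46.3 and 33.2 CPM with 0.4 µM rotenone, against 145, 182, 148 and 156 CPM with DMSO. Both rotenone cultures were far below all DMSO cultures. Its log2 fold change was -1.98 ± 0.23 (adjusted p = 1.85e-05), and within runs 5 and 6 the log2 ratios were -1.68 and -2.23. Among thinned cells 19.9% and 14.5% had an EGLN3 UMI with rotenone, against 43.6% to 61.3% with DMSO, and unthinned 90.3% and 69.1%, against 85.0% to 92.6%. EGLN3 spans 538.5 kb in the GENCODE annotation. Over all tested genes longer than 100 kb the median log2 fold change was -0.97, against -0.43 for genes under 10 kb and -0.45 between these lengths. Among genes of at least 50 CPM these medians were -0.65, 0.72 and 0.34. RNAs retained in the nucleus (7 genes, MALAT1 among them) summed to 20214 and 20512 CPM with 0.4 µM rotenone, against 33283 to 52333 CPM with DMSO. The part of gene length and of nuclear RNA in these results was not tested.

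CA9, ADM, ANKRD37 and P4HA1, the other hypoxia targets, were not called, with log2 fold changes between -0.08 and 0.76. CA9, a carbonic anhydrase at the cell surface and a common marker of hypoxia, was at 10.5 and 8.96 CPM with 0.4 µM rotenone, against 3.98, 3.22, 11.6 and 2.28 CPM with DMSO, so that the groups overlapped. ADM, the peptide hormone adrenomedullin, was at 23.3 and 60.9 CPM, against 20.5 to 31.5 CPM with DMSO, and only the rotenone culture of run 6 stood above that range.

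**Figure D1:**
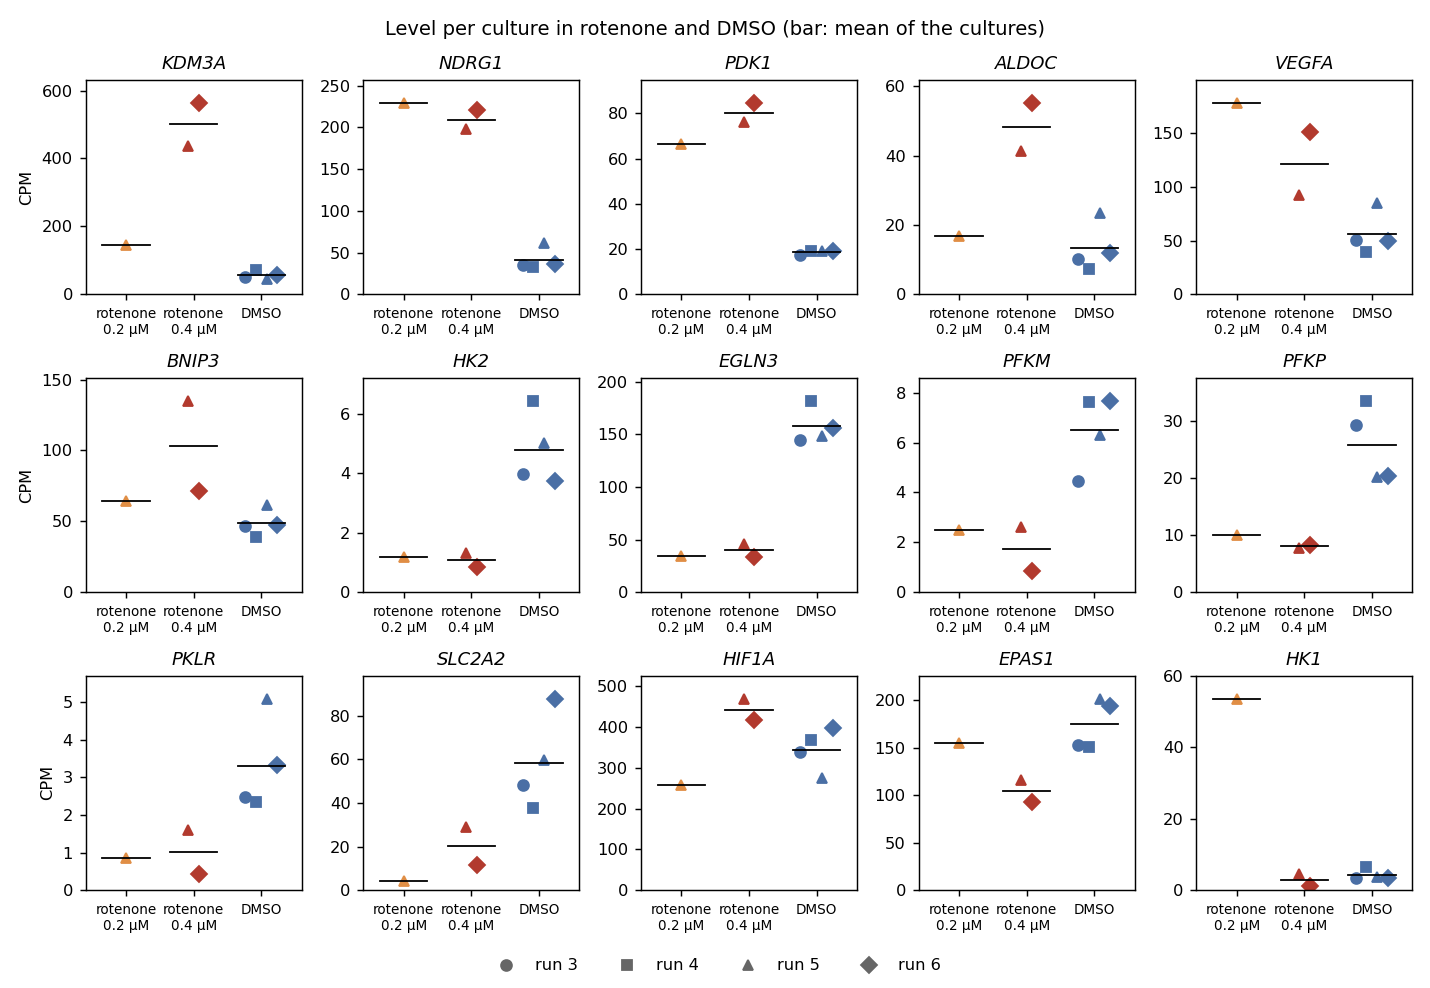
Levels of 15 genes in CPM (vertical axes) in each culture with 0.2 µM rotenone, 0.4 µM rotenone and DMSO, one panel per gene. Each point is a culture, its marker shows the run, and the bars are group means. KDM3A is at 438 and 564 CPM with 0.4 µM rotenone and at most 72.6 CPM with DMSO, while EGLN3 is at 46.3 CPM or less with 0.4 µM rotenone and at least 145 CPM with DMSO.

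HIF1A (chromosome 14, 61695513 to 61748259 on the plus strand), the oxygen-regulated subunit found in most tissues, was at 470 and 417 CPM with 0.4 µM rotenone, against 339, 368, 274 and 398 CPM with DMSO. Both rotenone cultures were above every DMSO culture, by little in run 6. edgeR gave a log2 fold change of 0.36 ± 0.22 (adjusted p = 0.164), and it was called only with scalings that raise the median of all genes (0.82 with TMM, adjusted p = 0.00449). EPAS1, its paralogue HIF-2 alpha (chromosome 2, 46293667 to 46386697 on the plus strand), was at 116 and 92.3 CPM, against 152, 150, 202 and 194 CPM with DMSO. No treated culture reached the DMSO range. The log2 fold change was -0.74 ± 0.22 (adjusted p = 0.0109), -0.29 with TMM (adjusted p = 0.264), and -0.59 without the rotenone culture of run 6 (adjusted p = 0.0808). The share of EPAS1 in the UMIs of HIF1A plus EPAS1 does not depend on the scaling, and it was 19.0% ± 1.15 with 0.4 µM rotenone (SD, n = 2), against 33.8% ± 5.93 with DMSO (n = 4). The cultures did not overlap (exact permutation test, two-sided, p = 0.0667, the smallest that 2 against 4 cultures can give, adjusted p = 0.111 over 10 shares).

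Among the 16 glycolytic enzymes tested, 3 were higher (against 19.1% of all genes tested) and 4 were lower (against 42.2%). The median of their log2 fold changes was 0.37. ENO2, the neuronal enolase, did not pass the filter and was at 0.48 and 0.70 CPM with 0.4 µM rotenone, against 0 to 0.239 CPM with DMSO. ALDOC, an aldolase best known from brain (chromosome 17, 28573115 to 28576948 on the minus strand), was at 41.3 and 55.3 CPM with 0.4 µM rotenone, against 10.1, 7.32, 23.4 and 12.0 CPM with DMSO. Both rotenone cultures were above all DMSO cultures. This was a log2 fold change of 1.81 ± 0.36 (adjusted p = 0.000841), with within-run log2 ratios of 0.82 and 2.20. ALDOC took 20.6% ± 1.21 of the UMIs of ALDOA plus ALDOC with 0.4 µM rotenone (n = 2), against 10.4% ± 0.793 with DMSO (n = 4, exact permutation p = 0.0667). ENO1, the enolase of most tissues, was at 514 and 487 CPM, against 235 to 337 CPM with DMSO (log2 fold change 0.77 ± 0.21, adjusted p = 0.00757). PGK1, a phosphoglycerate kinase that forms ATP, was at 162 and 181 CPM, against 96.2 to 128 CPM (0.57 ± 0.20, adjusted p = 0.0230). It was no longer called without the rotenone culture of run 6 (0.49, adjusted p = 0.0999) or without the DMSO culture of run 3 (0.49, adjusted p = 0.0917).

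HK2, PFKM, PFKP and PKLR belong to the families that catalyse the irreversible steps of the pathway, and their relatives HK1, PFKL and PKM were not called. HK2, the inducible hexokinase (chromosome 2, 74834127 to 74893359 on the plus strand), was at 1.32 and 0.840 CPM with 0.4 µM rotenone, against 3.98, 6.44, 5.00 and 3.74 CPM with DMSO. Both rotenone cultures were below all DMSO cultures, at low counts. Its log2 fold change was -2.01 ± 0.40 (adjusted p = 0.000839). PFKP, the platelet type of phosphofructokinase (chromosome 10, 3066333 to 3137718 on the plus strand), was at 7.82 and 8.26 CPM, against 29.4, 33.7, 20.2 and 20.3 CPM with DMSO. The groups did not overlap, and the fall was of like size within both runs (log2 ratios -1.37 and -1.30). edgeR gave a log2 fold change of -1.68 ± 0.30 (adjusted p = 0.000377).

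PFKM, the muscle type of the same enzyme (chromosome 12, 48105139 to 48146404 on the plus strand), was at 2.60 and 0.840 CPM with 0.4 µM rotenone, against 4.46, 7.61, 6.29 and 7.68 CPM with DMSO. Treated and DMSO cultures did not overlap. The log2 fold change was -1.70 ± 0.43 (adjusted p = 0.00437). PKLR, the pyruvate kinase of liver and red cells (chromosome 1, 155289293 to 155301438 on the minus strand), was at 1.60 and 0.420 CPM, against 2.47, 2.34, 5.09 and 3.32 CPM with DMSO. The groups did not overlap, yet the call rested on single cultures. This was a log2 fold change of -1.51 ± 0.49 (adjusted p = 0.0182), and it was -1.12 without the rotenone culture of run 6 (adjusted p = 0.0916), -1.14 without the DMSO culture of run 5 (adjusted p = 0.0649) and -1.07 with TMM (adjusted p = 0.0843).

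The enzymes not called were HK1, GPI, PFKL, ALDOA, TPI1, GAPDH, PGAM1, PKM and LDHA, with log2 fold changes between -0.41 for PFKL and 0.67 for GAPDH. Of these, ALDOA, TPI1, GAPDH, PGAM1 and PKM were called higher with TMM. GAPDH, often used as a loading control, was at 225 and 290.5 CPM with 0.4 µM rotenone, against 138, 96.0, 249 and 162 CPM with DMSO. LDHA, which forms lactate, was at 188 and 152 CPM, against 123, 90.7, 185 and 186 CPM. The groups overlapped for both genes. PGAM1 is uncertain, since 13 pseudogenes took 43.4% to 66.2% of the combined UMIs. HK1 was not called with all cultures (log2 fold change -0.39, adjusted p = 0.464), and it was called lower without the rotenone culture of run 5 (-1.71, adjusted p = 0.0345), a fit in which the spread comes from the DMSO cultures alone.

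**Figure D2:**
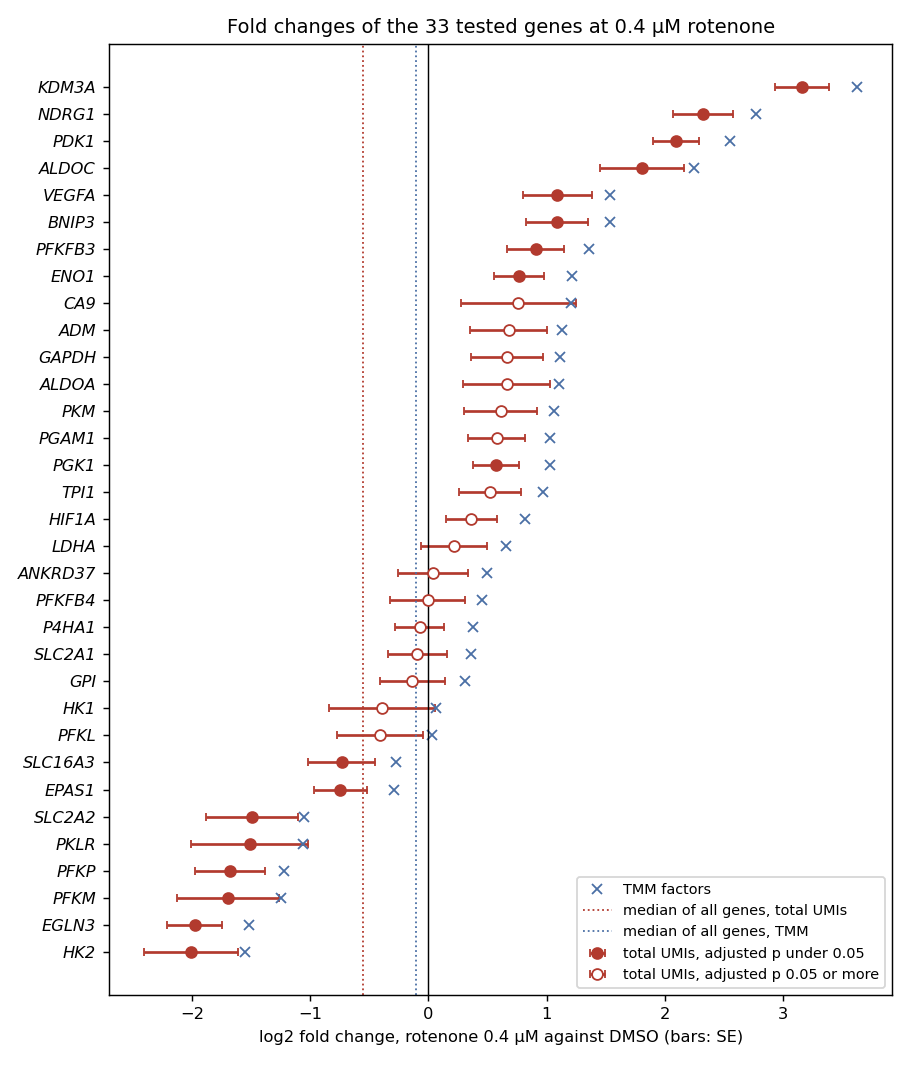
Log2 fold change of 33 genes with 0.4 µM rotenone against DMSO (horizontal axis), sorted by value. Points with bars are values ± SE with total-UMI scaling, filled where the adjusted p is under 0.05, and crosses are values with TMM factors. The dotted lines are the medians of all genes tested, -0.56 with total UMIs and -0.10 with TMM. KDM3A is highest at 3.16 and HK2 lowest at -2.01.

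Of the transporters, SLC2A2, the low-affinity glucose carrier of hepatocytes (chromosome 3, 170996347 to 171026743 on the minus strand), was at 28.9 and 11.5 CPM with 0.4 µM rotenone, against 48.2, 37.7, 59.5 and 87.8 CPM with DMSO. Both rotenone cultures were below all DMSO cultures, more so in run 6. Its log2 fold change was -1.49 ± 0.39 (adjusted p = 0.00535), with within-run log2 ratios of -1.04 and -2.94. SLC2A1, the glucose carrier of most dividing cells and a HIF target, was at 25.4 and 33.7 CPM, against 28.9, 26.9, 40.9 and 27.8 CPM, and the groups overlapped (-0.09, adjusted p = 0.758). SLC16A3, which exports lactate, was at 8.63 and 6.44 CPM, against 9.96 to 14.3 CPM with DMSO, and was lower at the margin (-0.74 ± 0.28, adjusted p = 0.0387). It was not called with TMM (-0.28, adjusted p = 0.389), nor without either rotenone culture or without the DMSO culture of run 3, 4 or 5, with adjusted p of 0.0514 to 0.199 in those fits. The 10 hepatocyte markers summed to 18541 and 9591 CPM with 0.4 µM rotenone, against 10917 to 26861 CPM with DMSO, the lower sum being in run 6. Of these 10 markers, 3 were lower and 0 higher. The stellate cell or fibroblast markers summed to 55.5 and 52.8 CPM with rotenone, against 122 to 242 CPM with DMSO, and 5 of the 7 tested were lower. The 6 proliferation genes summed to 533 and 730.0 CPM, against 842, 98.6, 201 and 88.4 CPM, and 3 of them were higher. The 8 cholangiocyte markers summed to 107 and 130 CPM, against 112 to 176 CPM with DMSO. Of the 6 tested, 1 was higher and 2 were lower, and of 4 endothelial markers tested 2 were higher and 1 was lower. Over all genes tested 19.1% were higher and 42.2% lower. The part of these cell types in the levels of SLC2A2, PKLR and the other genes was not tested.

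At 0.2 µM rotenone, with 1 culture, no spread can be estimated and the values below carry exact binomial intervals that cover counting error only. Eligible genes had at least 50 CPM and 50 UMIs in the higher condition. Of the 23 eligible genes of the group, 8 were at least 2-fold higher (HK1, PFKL, SLC2A1, VEGFA, KDM3A, NDRG1, PDK1 and ADM) and 2 at least 2-fold lower (SLC2A2 and EGLN3). Over all 5542 eligible genes the shares were 19.0% and 17.5%. HK1, PFKL, SLC2A1, NDRG1, PDK1 and ADM had DMSO means under 50 CPM and were eligible only through the rotenone culture, so that nothing is read from the group's share. Without the DMSO culture of run 6, SLC2A2 was under 50 CPM in both conditions and 1 lower gene was left.

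HK1, the hexokinase of most tissues (chromosome 10, 69269984 to 69401884 on the plus strand), was at 53.7 CPM with 0.2 µM rotenone, and at 4.45 and 1.26 CPM with 0.4 µM rotenone, against 3.51, 6.44, 3.74 and 3.53 CPM with DMSO. The lower dose alone stood out, 12.5-fold above the DMSO mean (log2 ratio 3.64, interval 3.44 to 3.85). A UMI of HK1 was found in 20.5% of the thinned cells at 0.2 µM, against 1.60% to 4.72% of DMSO cells, and in 65.9% unthinned, against 12.6% to 23.8%. PFKL, the liver type of phosphofructokinase, was at 59.8 CPM with 0.2 µM rotenone, and at 14.8 and 17.8 CPM with 0.4 µM, against 18.5, 11.1, 34.9 and 19.5 CPM with DMSO. SLC2A1 was at 81.8 CPM with 0.2 µM rotenone, where the 0.4 µM cultures lay within or near the range of DMSO. Thus HK1, PFKL and SLC2A1 were above all other rotenone and DMSO cultures in the single culture at 0.2 µM, and no second culture of that dose was used.

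Of the hypoxia targets, NDRG1, VEGFA, KDM3A and ADM were at least 2-fold higher at 0.2 µM, where 19.0% of all eligible genes were. NDRG1 and ADM were eligible only through the rotenone culture, and CA9 and ANKRD37 were not eligible. P4HA1, which modifies collagen, was at 38.2 CPM, below the DMSO range of 57.8 to 70.4 CPM. NDRG1 was at 229 CPM (log2 ratio 2.47, interval 2.42 to 2.53), VEGFA at 178 CPM (1.66, interval 1.61 to 1.71) and PDK1 at 66.5 CPM (1.82, interval 1.73 to 1.92). KDM3A was at 144 CPM (1.35, interval 1.29 to 1.41), which lay below both 0.4 µM cultures and above all DMSO cultures. By contrast ALDOC, at 16.9 CPM, BNIP3, at 64.4 CPM, and ENO1, at 242 CPM, were in or next to the DMSO range. ADM was at 53.1 CPM, against 20.5 to 31.5 CPM with DMSO. SLC2A2, at 4.20 CPM, was below both 0.4 µM cultures and all DMSO cultures (log2 ratio -3.79, interval -3.95 to -3.64), and EGLN3, at 34.8 CPM, was in the range of the 0.4 µM cultures (-2.18, interval -2.24 to -2.12). Of the genes under 50 CPM, HK2 (1.17 CPM), PFKP (10.1 CPM) and the ankyrin-repeat gene ANKRD37 (4.18 CPM) were below all DMSO cultures. HIF1A stood at 258 CPM and EPAS1 at 155 CPM, so that HIF1A was below all DMSO cultures and EPAS1 within their range. The hepatocyte markers summed to 10712 CPM and the nuclear RNAs to 36588 CPM at 0.2 µM, and their part in these values was not tested.

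The isozyme shares, taken from UMIs and so not corrected for gene length, were compared between cultures only. HK2 took 22.9% and 40.0% of the hexokinase UMIs (HK1 plus HK2) with 0.4 µM rotenone, against 53.0% ± 3.11 with DMSO (SD, n = 4), and 2.14% with 0.2 µM rotenone. SLC2A2 took 53.2% and 25.4% of the UMIs of SLC2A1 plus SLC2A2 with 0.4 µM rotenone, against 58.4% to 75.9% with DMSO, and 4.88% with 0.2 µM rotenone. PFKL took 62.4% ± 5.31 of the phosphofructokinase UMIs with 0.4 µM rotenone (n = 2), against 38.6% ± 14.7 with DMSO (n = 4), and 82.6% at 0.2 µM. The 0.4 µM cultures did not overlap with DMSO for HK2, ALDOC, ENO2, PKLR, SLC2A2 and EPAS1 (each exact permutation p = 0.0667, adjusted 0.111). PFKL and PFKP did not overlap with DMSO either, though the DMSO cultures were widely spread and the exact p was 0.133. No share could reach 0.05 in this design.

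**Figure D3:**
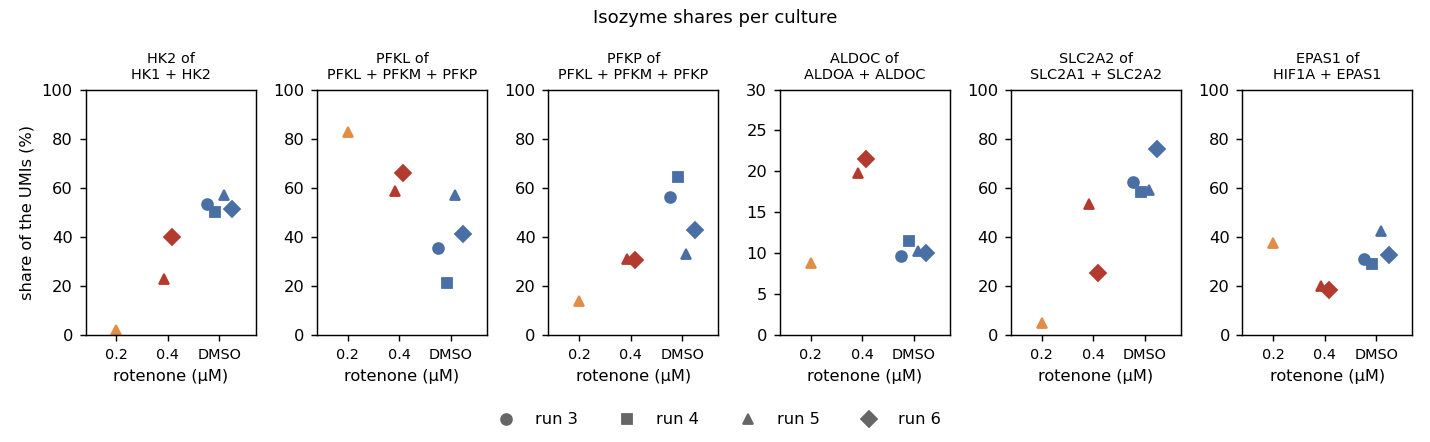
Share of an isozyme or paralogue in the UMIs of its family (percent, vertical axes) in each culture with 0.2 µM rotenone, 0.4 µM rotenone and DMSO, for HK2, PFKL, PFKP, ALDOC, SLC2A2 and EPAS1. Each point is a culture, its marker shows the run, and the ALDOC axis ends at 30%. ALDOC averages 20.6% with 0.4 µM rotenone and 10.4% with DMSO, and EPAS1 19.0% and 33.8%.

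Cycloheximide at 20 µM changed 7 of the 33 genes tested. HIF1A and ENO1 were higher, and PKLR, SLC2A2, ALDOC, HK1 and EGLN3 were lower. The 2 higher genes (6.06%) compare with 6.52% of the 18706 genes tested, and the 5 lower ones (15.2%) with 13.2%, so that both shares were close to those of all genes. The median log2 fold change was -0.13 for the group and -0.12 over all genes. One of the cultures, of run 4, held only 37 cells, and the other, of run 3, held 225.

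HIF1A stood at 1051 and 938 CPM with 20 µM cycloheximide (runs 3 and 4), against 339, 368, 274 and 398 CPM with DMSO. Both treated cultures were more than 2-fold above every DMSO culture. edgeR gave a log2 fold change of 1.53 ± 0.20 (adjusted p = 0.000426), and it was called in every alternative fit run. From DMSO upward, HIF1A was at 365 and 350 CPM with 0.2 µM and at 482 and 422 CPM with 2 µM, before the values at 20 µM. In thinned cells a HIF1A UMI was found in 96.0% and 94.6% of the cells at 20 µM, against 68.5% to 74.8% in DMSO, and unthinned in 99.6% and 100%, against 92.9% to 97.4%. EPAS1, at 142 and 179 CPM, lay in or next to the DMSO range (-0.13, adjusted p = 0.721), and its share of the factor pair was 14.0% ± 2.95 (n = 2), against 33.8% ± 5.93 with DMSO (n = 4, exact permutation p = 0.0667, adjusted 0.133).

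SLC2A2 was at 3.11 and 8.56 CPM with 20 µM cycloheximide, against 48.2, 37.7, 59.5 and 87.8 CPM with DMSO. Both treated cultures were far below the DMSO range. The log2 fold change was -3.61 ± 0.48 (adjusted p = 0.000402). At the lower doses it was at 47.7 and 28.7 CPM (0.2 µM) and at 34.5 and 54.9 CPM (2 µM), in or near that range. PKLR was at 0.100 and 0 CPM at 20 µM, from 1 UMI in all, against 2.47, 2.34, 5.09 and 3.32 CPM with DMSO, from 225 UMIs. The ratio of the pooled rates was 0.0203 with a counting interval of 0.000512 to 0.114, and the edgeR test gave an adjusted p of 0.00205. Of the hepatocyte markers, 9 of 10 were lower at 20 µM, against 13.2% of all genes tested. Their sums were 3135 and 7186 CPM, against 10917 to 26861 CPM with DMSO. The nuclear RNAs summed to 54319 and 51185 CPM. The part of both in the fall of SLC2A2 and PKLR was not tested.

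ALDOC was at 2.40 and 3.21 CPM with 20 µM cycloheximide, against 10.1, 7.32, 23.4 and 12.0 CPM with DMSO, which is the direction opposite to that with 0.4 µM rotenone. The groups did not overlap. This was a log2 fold change of -2.36 ± 0.54 (adjusted p = 0.0101). HK1 was at 0.902 and 1.61 CPM, against 3.51, 6.44, 3.74 and 3.53 CPM (-1.94 ± 0.54, adjusted p = 0.0252), and it was not called in a joint fit of all conditions (-1.95, adjusted p = 0.0601). EGLN3 was at 57.7 and 86.2 CPM, against 145, 182, 148 and 156 CPM (-1.15 ± 0.23, adjusted p = 0.00467), and at 110 and 168 CPM with 0.2 µM and 105 and 133 CPM with 2 µM cycloheximide. It was thus lower with both 0.4 µM rotenone and 20 µM cycloheximide, against the same DMSO cultures. Without the cycloheximide culture of run 3, which leaves 1 culture (the 37 cells of run 4) that is assumed to vary like the DMSO cultures, only SLC2A2 of the lower genes was still called (-2.77, adjusted p = 0.0132), and ALDOC (-2.08, adjusted p = 0.125), HK1 (-1.36, adjusted p = 0.287), EGLN3 (-0.87, adjusted p = 0.0560) and PKLR (adjusted p = 0.0619) were not.

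ENO1 was at 391 and 603 CPM with 20 µM cycloheximide, against 278, 235, 324 and 337 CPM with DMSO. The groups did not overlap, but the call was marginal (0.75 ± 0.23, adjusted p = 0.0372). It was lost without the DMSO culture of run 3 (adjusted p = 0.0926), run 4 (0.0599) or run 6 (0.0563), and without the cycloheximide culture of run 4 the log2 fold change was 0.41 (adjusted p = 0.318). VEGFA was at 128 and 66.9 CPM, against 50.5, 39.5, 85.3 and 50.01 CPM, and was not called (0.80, adjusted p = 0.0957). It passed without the DMSO culture of run 5 (1.08, adjusted p = 0.0183) and without the cycloheximide culture of run 4 (1.16, adjusted p = 0.0392). KDM3A, NDRG1 and PDK1, the genes with the largest rises at 0.4 µM rotenone, had log2 fold changes of 0.19, 0.04 and 0.27 at 20 µM cycloheximide (adjusted p = 0.626, 0.948 and 0.463).

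**Figure D4:**
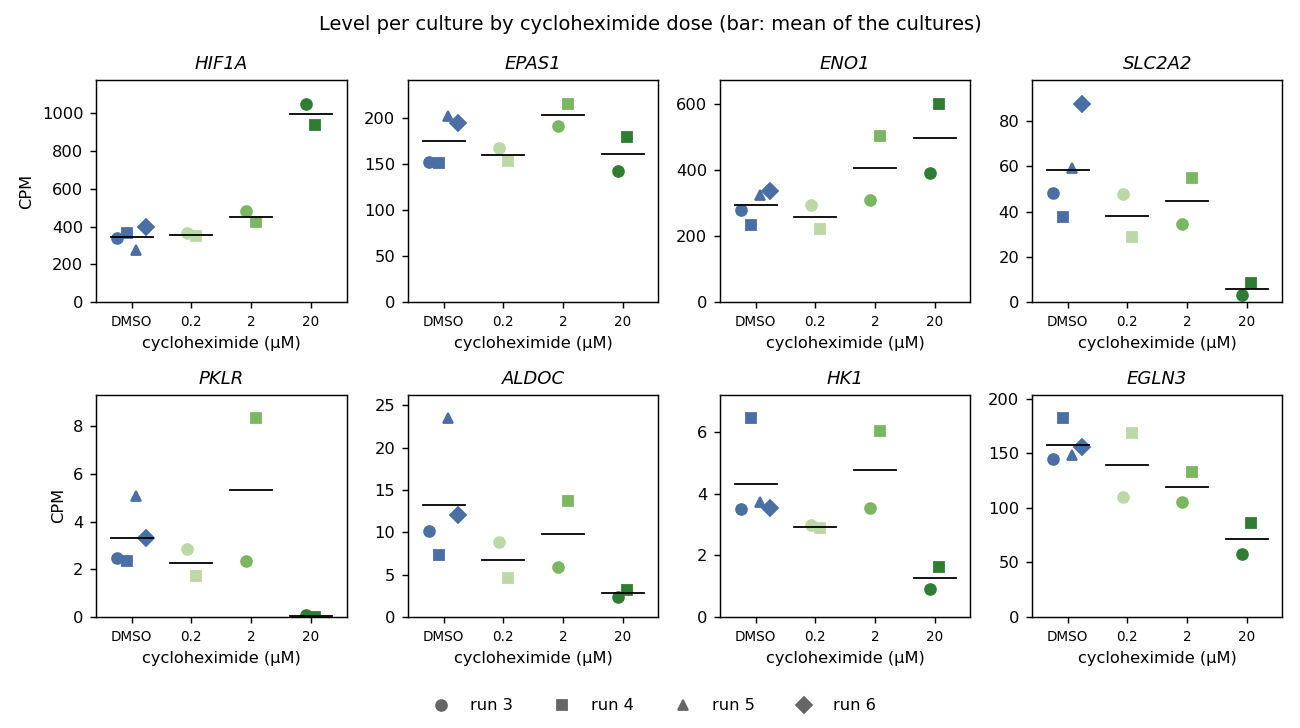
Levels of 8 genes in CPM (vertical axes) in each culture with DMSO and 0.2, 2 and 20 µM cycloheximide (horizontal axes). Points are cultures, their markers show the run, and bars are group means. HIF1A is at 1051 and 938 CPM at 20 µM and SLC2A2 at 3.11 and 8.56 CPM, each outside the range of the lower doses and DMSO.

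In the other conditions almost no gene of the group differed by the rules used. Over the 8 other conditions with 2 cultures each (cycloheximide 0.2 and 2 µM, etoposide and tunicamycin), 0 of 264 pairs of gene and condition were called by edgeR, against 0.00126% of 159006 pairs over all genes. At an unadjusted p under 0.05 there were 12 pairs, 0 to 4 of the 33 genes per condition. Over all genes that count ran from 247 of 19022 (2.5 µM etoposide) to 1457 of 19926 (2 µM cycloheximide). Nothing is read from the 12 pairs. DESeq2 called 0 of the group's pairs, and over all genes 0 to 24 higher and 0 to 68 lower per condition. The log2 fold changes ranged from -1.10 (PKLR, 0.01 µM tunicamycin) to 1.37 (HK1, 0.1 µM tunicamycin). With 1 culture each at 3 doses of tBHQ, a quinone precursor that induces antioxidant genes, and of brefeldin A, which blocks transport out of the endoplasmic reticulum, 1 of 103 eligible pairs was 2-fold changed, against 0.858% of 26909 pairs over all genes. That pair was ALDOA at 3 µM tBHQ (log2 ratio 1.03), and the others lay between -0.63 and 0.94. It was not counted when the DMSO culture of run 3, 4 or 6 was left out (0 pairs each), and 4 pairs were counted without that of run 5.

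**Figure D5:**
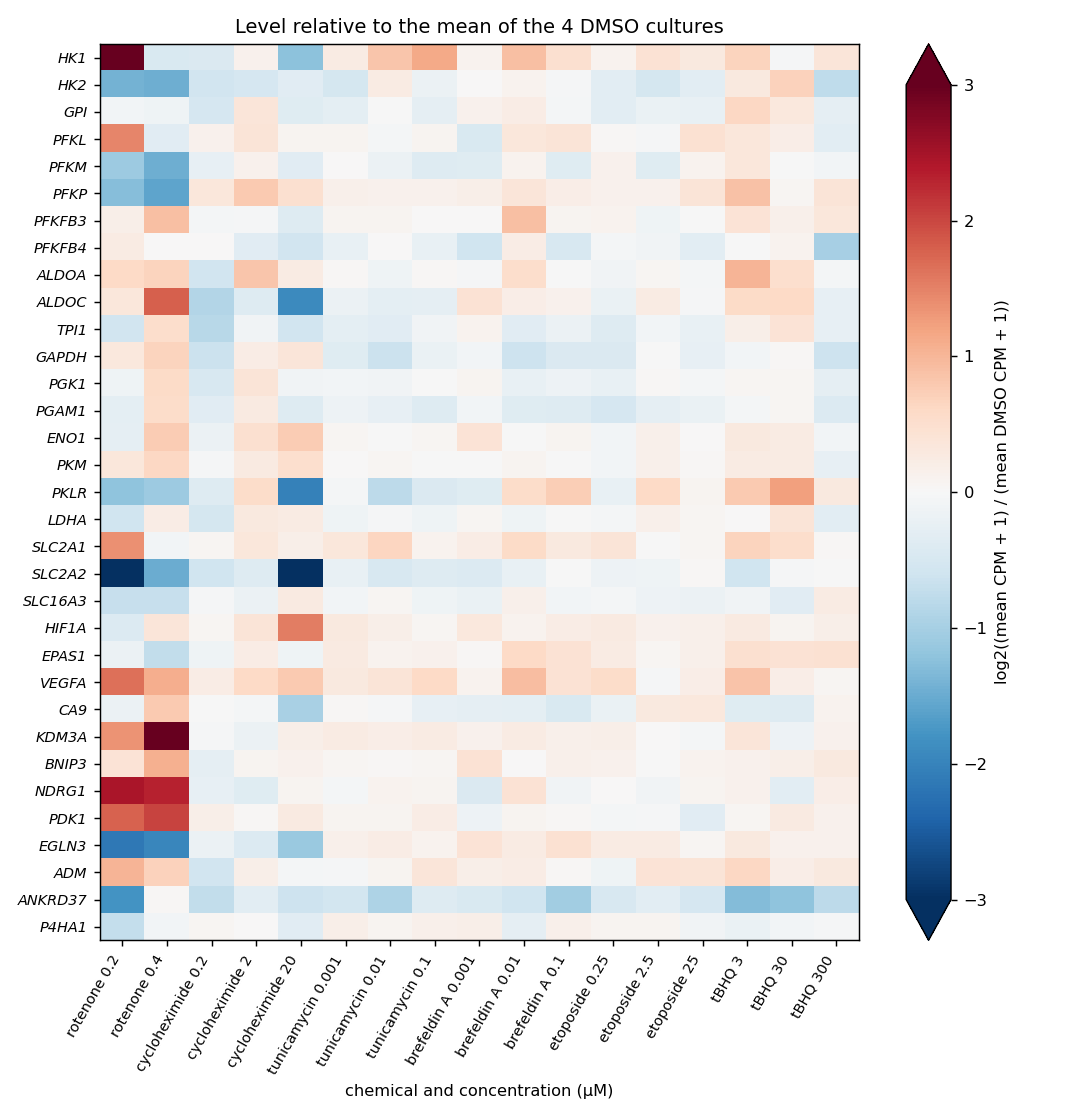
Colour map of the log2 ratio of mean CPM plus 1 to the DMSO mean plus 1 for 33 genes (rows) in the treated conditions (columns), with the colour scale ending at 3 in either direction. The strongest colours stand in the columns of rotenone and of 20 µM cycloheximide, with KDM3A, NDRG1 and PDK1 high in rotenone and SLC2A2 low in both.

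Other genes of the same pathways moved in both directions as well. Of 32 other genes of glycolysis and glucose use, 28 were tested at 0.4 µM rotenone, of which 7 were higher and 10 lower, against 19.1% and 42.2% of all genes tested. The median of their log2 fold changes was -0.30 (12 higher and 9 lower with TMM). PDK4, a further pyruvate dehydrogenase kinase, averaged 263 ± 187 CPM with 0.4 µM rotenone (SD, n = 2) and 65.1 ± 2.65 CPM with DMSO (n = 4, log2 fold change 2.01, adjusted p = 0.000173). The mitochondrial pyruvate carrier genes MPC1 and MPC2 were higher (0.81 and 1.05), as was BPGM, a bisphosphoglycerate mutase (1.61). PFKFB1, the liver form of the regulator, was lower (-4.40), as were the transporter SLC16A7 (-2.40) and the liver glycogen synthase GYS2 (-2.29). At 20 µM cycloheximide 2 of 28 were higher, TIGAR and ENO3, and 10 were lower, among them PFKFB1 (-3.07) and the glucose transporter SLC2A10 (-2.69). Over all genes tested 6.52% were higher and 13.2% lower with this treatment.

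Of 38 other genes of the hypoxia response, 36 were tested at 0.4 µM rotenone, of which 11 were higher and 4 lower, against 19.1% and 42.2% of all genes tested. Their log2 fold changes had a median of 0.12 (16 higher and 3 lower with TMM). DDIT4, an inhibitor of mTORC1 signalling, was the highest of them (2.54, 108 ± 67.1 CPM with 0.4 µM rotenone, n = 2, and 18.0 ± 7.45 CPM with DMSO, n = 4). FAM162A (2.22), the repressor BHLHE40 (1.77) and BNIP3L, a paralogue of BNIP3 (1.70), followed. LOXL2 (-2.79), ANGPTL4 (-2.41), ARNT2 (-2.18) and ZNF395 (-0.86) were lower. At 20 µM cycloheximide 3 of 36 were higher, STC2, CITED2 and PLOD2, and 6 were lower, among them ANGPTL4 (-2.42) and BHLHE40 (-1.48). Over all genes tested with this treatment 6.52% were higher and 13.2% lower. BHLHE40 was thus called higher with 0.4 µM rotenone and lower with 20 µM cycloheximide, and ANGPTL4 was called lower with both, against the same DMSO cultures.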

How the data were processed

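The authors deposited a matrix of UMI counts per gene and cell with a cell and a gene table. Per the labels and the methods, barcodes and UMIs were extracted, reads were aligned to GRCh38 and repeated UMIs were collapsed. Neither the version of the pipeline nor its annotation is given in the sources used here. Conditions were read from the culture name in the cell table, since the deposited samples are sublibraries. Counts were summed per culture of 30 or more cells, over cells that held 500 or more genes and no more than 20% mitochondrial UMIs. Doublets were not removed and no clusters were made. CPM is the count per 1000000 UMIs of a culture.

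With 2 treated cultures, treated and 4 DMSO cultures were compared by edgeR 4.0.16 (quasi-likelihood test, filterByExpr, total UMIs as library sizes, R 4.3.3), with Benjamini-Hochberg adjustment over all genes tested, at 0.05. The SE is the log2 fold change divided by the square root of F. With 1 treated culture, exact conditional binomial 95% intervals were given. Alternatives were TMM factors, DESeq2 1.42.0 size factors and test, totals without mitochondrial genes, no filter on low counts, all cells, a joint fit, a block on run and leaving out each culture. Named with values in every culture were HIF1A, EPAS1 and genes called at 0.4 µM rotenone or 20 µM cycloheximide with a log2 fold change of at least 1 in size, with further members named after their values were seen. From the other lists at most the 4 largest called rises and 4 largest falls were named, except 1 gene that is not reported here. Gene positions are those of GENCODE on GRCh38. Shares of cells were taken after thinning each cell to 5000 UMIs, and 0 of the cells were shallower. The edgeR script was tested on simulated data. Cultures in medium and with 50 µM troglitazone have no condition in the labels and entered no comparison. The members and gene lists were chosen with earlier results of these data known.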

Additional observations from a re-analysis of the deposited data

Results flagged for a closer look

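For independent genes chance would flag about 1 gene in 20, but genes measured in the same cultures are not independent. The count is therefore not compared with that rate. Among the DMSO cultures 6 of the 34 genes had 1 culture far from the other 3. Of these, 4 were high in run 5, the deepest DMSO culture: PKM was at 433 CPM (others 203 to 226), SLC2A1 at 40.9 CPM (others 26.9 to 28.9), NDRG1 at 61.5 CPM (others 32.2 to 36.1) and ENO2 at 0.239 CPM (others 0). HK1 was high in run 4, at 6.44 CPM (others 3.51 to 3.74), and PDK1 was low in run 3, at 17.3 CPM (others 19.3). Outside the comparisons, the lowest of the 3 medium cultures had 347 CPM of ENO1, above the DMSO range of 235 to 337 CPM, in 1 of 68 such checks.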

How the results depend on the processing

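With 0.4 µM rotenone, the 9 higher genes became 16 with TMM factors, 18 with DESeq2 size factors in edgeR, 18 with DESeq2 and 14 with no filter on low counts, and 6 to 14 when 1 culture was left out. The 8 lower genes became 5 with TMM, 5 with DESeq2 size factors and 5 with DESeq2, and 5 to 8 when 1 culture was left out. With 20 µM cycloheximide, the 2 higher genes became 1 with all cells and 1 to 4 when 1 culture was left out, and the 5 lower ones 1 to 7. At 0.4 µM rotenone, the calls over all 19831 genes moved as well. The 3794 higher became 5570 with TMM, 5884 with DESeq2 size factors and 5643 with DESeq2. The 8373 lower became 6078, 5914 and 5564 in the same order. Shares of all genes are not given for the other fits, so that those counts do not describe the group alone. Over the 8 other conditions with 2 cultures, the 0 calls became 2 with no filter. At 0.2 µM rotenone, the 2 lower genes became 4 from 10 CPM and 20 UMIs on and 1 to 2 when a DMSO culture was left out. A joint fit that includes this dose was added after the data were seen. Its count is not given, because it assumes that the lone culture varies like the other conditions. For tBHQ and brefeldin A the 1 pair became 2 without mitochondrial genes in the totals, 4 from 10 CPM and 20 UMIs on, and 0 to 4 when a DMSO culture was left out. Leaving out 1 culture gave share differences of -30.0 to -13.0 percentage points for HK2, -9.24 to -2.03 for PFKM, 9.41 to 11.1 for ALDOC, -1.13 to -0.74 for PKLR and -38.6 to -10.8 for SLC2A2. The 19 promoter matches were the same number before the start only.

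No source says that run numbers pair the cultures, and over all genes the deviations of same-numbered cultures correlated at -0.19 for 0.4 µM rotenone, -0.01 for 20 µM cycloheximide and up to 0.46 elsewhere. With a block on run, 5 genes were higher at 0.4 µM rotenone (ENO1, PFKFB3, PGK1 and VEGFA were lost) and 7 lower (SLC16A3 was lost), at 20 µM cycloheximide ENO1 and HK1 were lost and VEGFA was gained, and 4 pairs were called over the 8 other conditions.

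Over the single genes named, 483 values under alternatives kept their call and direction, 40 lost the call, 9 gained one and 0 reversed. Low counts limit HK1, HK2, PFKM, PKLR and ENO2.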

Other observations

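The cultures in medium (3) and those named for 50 µM troglitazone (4) have no condition in the labels. HIF1A was at 339, 347 and 374 CPM in medium and at 271 to 353 CPM with troglitazone. KDM3A was at 50.1 to 54.0 CPM in medium and at 55.8 to 64.5 CPM with troglitazone. EGLN3 was at 138 to 223 CPM in medium and at 113 to 171 CPM with troglitazone.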
